A study of Mus musculus with 3 samples.

Results

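Iron uptake, storage and export were followed through 10 genes in the RNA of apoptotic bodies (ABs), the membrane-bound fragments that dying cells shed. The genes were chosen by symbol, and every row of the mRNA table whose transcript carries 1 of these symbols in GENCODE M21 was taken. They held 47 of the 56651 transcripts of the table and 10 of its 15815 gene symbols, and all 10 had reads in each of the 3 libraries. Tfrc, Steap3, Slc11a2 and Slc11a1 stand for uptake, Fth1, Ftl1 and Ncoa4 for storage, Slc40a1 for export, Hmox1 for the release of iron from haem, and Ireb2 for regulation.

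The libraries were BMM-ABs, pOC-ABs and mOC-ABs, from bone marrow macrophages, preosteoclasts and mature osteoclasts of 11-week-old C57BL/6 mice without a named transgene. According to the labels, all 3 came from marrow cells kept in M-CSF at 50 ng/ml for 72 h. The preosteoclasts then received RANKL at 100 ng/ml with M-CSF at 30 ng/ml for 24 h, and the mature osteoclasts the same for 72 h or longer, while the BMMs received no RANKL. The labels give alendronate at 500 µM for 12 h as the inducer of apoptosis in all 3 groups, where the study's methods name staurosporine. The methods also differ from the labels in the M-CSF level beside RANKL, in the time of M-CSF before it, which is shorter, and in the culture of the mature osteoclasts, which is longer. The sample titles name cells and the series' design text names ABs. ABs were assumed here. How many mice were pooled into a library is not given in the sources used here. Each group was 1 library, so no difference below was set against a spread between samples, and no p-value is given.

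Cells take up iron mostly as transferrin bound to the transferrin receptor, free it in endosomes, and pass it to the cytosol through a divalent metal transporter. Iron that is not used is stored in the shell of ferritin, built from heavy and light chains, or leaves through ferroportin. Iron regulatory proteins bind a short hairpin, the iron-responsive element, and when iron is scarce they hold back the translation of mRNAs with the element in the 5′ UTR and protect transferrin receptor mRNA, which has several in its 3′ UTR. Macrophages recycle iron from the haem of red cells, while osteoclasts, with their many mitochondria, are known for a high demand for iron.

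The elements in the 5′ UTRs of Fth1, Ftl1 and Slc40a1 and in the 3′ UTRs of Tfrc and Slc11a2 are shown because mRNAs with such an element are the known targets of the iron regulatory proteins. Each was found in the GENCODE M21 transcript, on the transcript's own strand only, as a C, 5 further bases and then the loop CAGTGN, with at least 4 of the 5 bases before the loop able to pair with the 5 after it, G to T pairs allowed. Each line gives 30 bases in the DNA alphabet, 5′ to 3′, with the loop in capitals.
Fth1, 5′ UTR: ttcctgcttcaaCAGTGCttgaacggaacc
Ftl1, 5′ UTR: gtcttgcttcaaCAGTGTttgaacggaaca
Slc40a1, 5′ UTR: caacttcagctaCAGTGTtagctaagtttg
Tfrc, 3′ UTR, element 1: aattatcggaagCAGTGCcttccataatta
Tfrc, 3′ UTR, element 2: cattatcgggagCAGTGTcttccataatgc
Tfrc, 3′ UTR, element 3: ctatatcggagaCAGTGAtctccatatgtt
Tfrc, 3′ UTR, element 4: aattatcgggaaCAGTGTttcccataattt
Slc11a2, 3′ UTR: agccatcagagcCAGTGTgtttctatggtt

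On GRCm38 the Fth1 element lies at chr19:9982732-9982761 on the plus strand, the Ftl1 element at chr7:45459778-45459807 on the minus strand and the Slc40a1 element at chr1:45925464-45925493 on the minus strand. The Tfrc elements lie on the plus strand at chr16:32631219-32631248, chr16:32631598-32631627, chr16:32631663-32631692 and chr16:32631710-32631739. The Slc11a2 element is on the minus strand at chr15:100395152-100395181, and it alone of these 8 paired at 4 of 5 positions. Slc11a1 held a further match with 4 of 5 pairs inside its coding sequence, at chr1:74383496-74383525. No match was found in transcripts of Hmox1, Ncoa4, Steap3 or Ireb2. Of 58797 protein-coding transcripts, 7.75% held a match anywhere, 2.86% in a UTR and 0.446% in a UTR with 5 of 5 pairs. A match is a description of the letters and not a measured binding site.

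Ferritin made up most of the iron-gene RNA in all 3 libraries. In FPKM, the authors' reads per transcript length and library total, summed per gene, Fth1 ranked 3 in each library among 12378 protein-coding genes, and Ftl1 ranked 13, 15 and 7. Here and below, 3 values in a row follow the stages, BMM-ABs first, pOC-ABs second and mOC-ABs last. Both chains together held 89.5%, 90.9% and 89.5% of the reads of the 10 genes. The 10 genes held 0.627%, 0.738% and 0.611% of all reads of the mRNA table.

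Below ferritin, Hmox1 had the next highest FPKM in every library, and Slc40a1 the lowest. The places between them moved. In BMM-ABs Slc11a1 stood above Tfrc, and in pOC-ABs and mOC-ABs Tfrc stood above Slc11a1, each time with intervals that do not overlap. Ncoa4, Ireb2, Slc11a2 and Steap3 followed in that order in BMM-ABs and pOC-ABs, while in mOC-ABs Ireb2 came before Ncoa4. Neighbours with overlapping intervals were Ncoa4 with Ireb2 and Ireb2 with Slc11a2 in BMM-ABs, and Slc11a2 with Steap3 in pOC-ABs. In mOC-ABs they were Slc11a1 with Ireb2, Ireb2 with Ncoa4 and Slc11a2 with Steap3. The 95% intervals of levels are exact Poisson intervals of a gene's summed reads, scaled to its FPKM. They leave out that reads of short transcripts weigh more in summed FPKM, so they can be too narrow. Intervals of ratios are exact binomial (Clopper-Pearson) and those of shares are Wilson intervals. All of them cover counting error only, as the sources name no molecular identifiers.

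**Figure D1:**
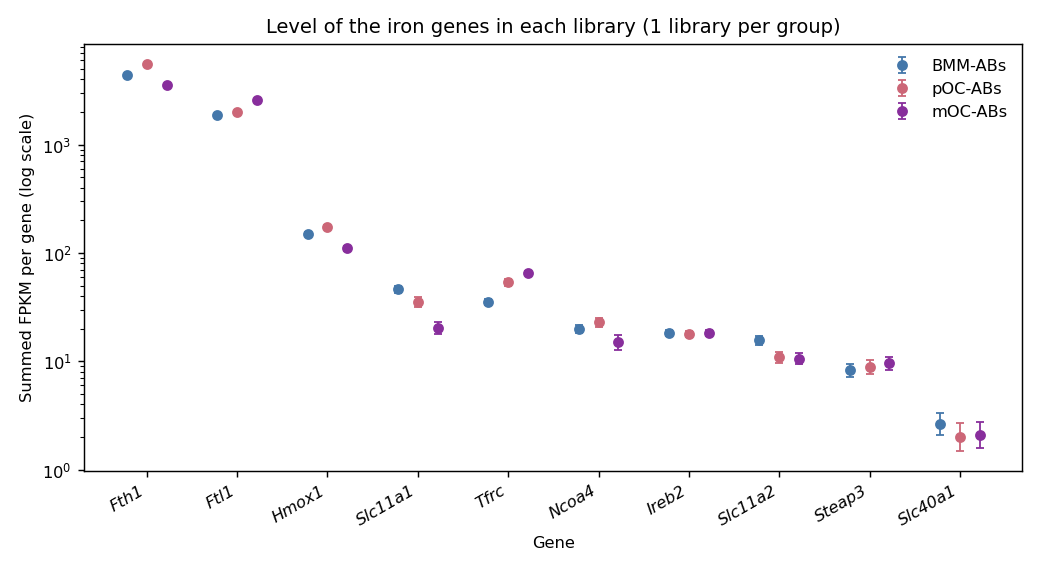
Summed FPKM of each iron gene (y axis, log scale) in the 3 AB libraries, with genes on the x axis ordered by their level in BMM-ABs. Points are single libraries and bars are 95% counting intervals. Fth1 and Ftl1 lie above 1000 FPKM in each library, and Slc40a1 lies between 2.02 and 2.66.

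Levels between libraries were compared as reads summed over the transcripts of a gene, divided by the reads of the mRNA table, which numbered 9100082, 7387317 and 7705592. A gene was counted as different when this ratio reached 2-fold, with at least 20 reads over both libraries. The study set a fold-change limit of 2 together with an FDR limit, and the FDR part was not applied here because each group is 1 library. In pOC-ABs against BMM-ABs (G1), 0 of the 10 iron genes reached it, against 9.94% of the 12351 genes compared. In mOC-ABs against BMM-ABs (G2) 3 of 10 reached it, Tfrc higher and Slc11a1 and Ncoa4 lower, against 12.3% of 12319 genes. In mOC-ABs against pOC-ABs (G3) 1 of 10, Ncoa4, reached it, against 8.97% of 12179 genes. The 3 comparisons share libraries and are not independent. By summed FPKM the counts in G1, G2 and G3 were 0, 1 (Slc11a1) and 0 of 10, against 10.2%, 12.8% and 9.4% of all genes. At 1.5-fold in reads they were 1, 3 and 5, against 28.6%, 28.7% and 22.4%. The median log2 ratio of the 10 genes was 0.01, −0.33 and −0.02 in G1, G2 and G3, beside −0.03, −0.05 and −0.04 over all genes compared. In a bulk library, fewer ABs from cells of a type and less RNA per AB cannot be told apart. Scaling by the reads of the mRNA and lncRNA tables together lowers every log2 ratio by 0.199 in G1 and 0.100 in G2 and raises it by 0.099 in G3.

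**Figure D2:**
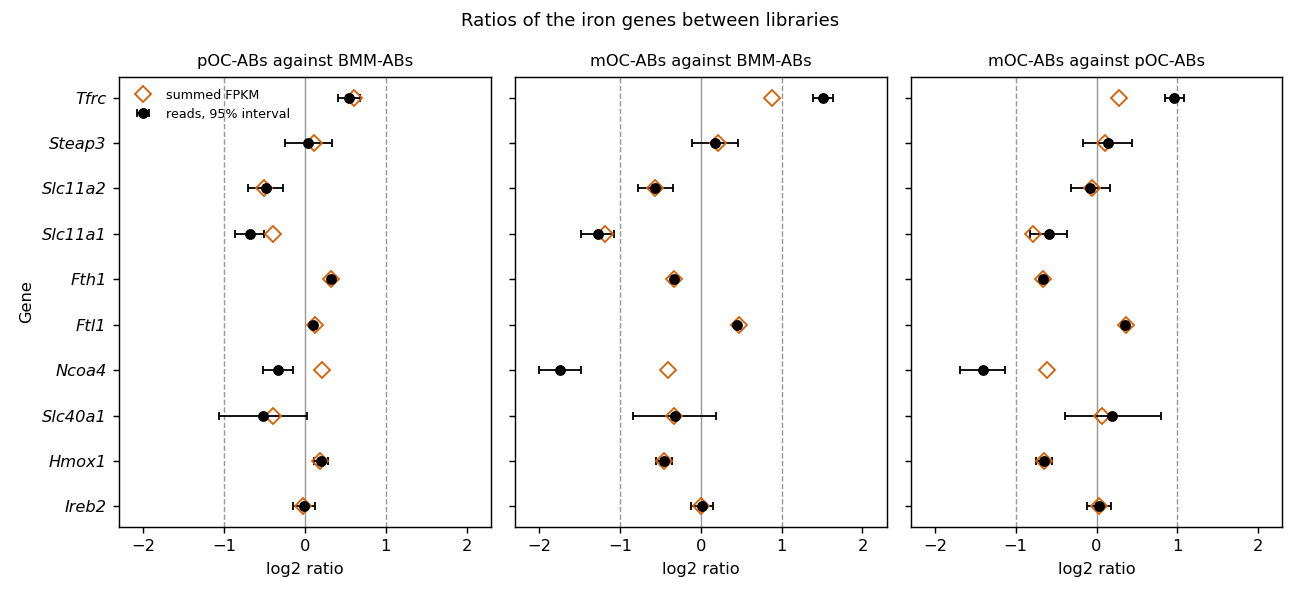
Log2 ratio (x axis) of each iron gene (y axis) in the 3 comparisons. Black points are ratios of reads with 95% counting intervals, orange diamonds are ratios of summed FPKM, and dashed lines mark 2-fold. Tfrc at 1.51, Slc11a1 at −1.28 and Ncoa4 at −1.74 lie past the lines in mOC-ABs against BMM-ABs, and the diamonds of Tfrc and Ncoa4 lie inside them.

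Tfrc, the transferrin receptor that brings transferrin-bound iron into the cell (chr16:32608920-32632794, plus strand), was higher in mOC-ABs than in the other 2 libraries. It had 774, 917 and 1863 reads. The mOC-AB level was 2.84-fold the BMM-AB level (log2 1.51, interval 1.39 to 1.63) and 1.95-fold the pOC-AB level (log2 0.96, interval 0.85 to 1.08). The latter passes 2-fold when scaled by both tables or by median-of-ratios factors. The pOC-AB level was above the BMM-AB level by 0.55 on the log2 scale, with an interval of 0.41 to 0.69. Summed FPKM gave the same order with smaller steps, 35.3, 53.5 and 64.9, so that mOC-ABs stood 1.84-fold above BMM-ABs and short of 2-fold. Of this FPKM, 10.6, 15.5 and 9.38 came from a coding transcript of 166 bases with only 16, 19 and 12 reads.

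The rise of Tfrc reads in mOC-ABs lay in its longest coding transcript, and the smaller rise in pOC-ABs mainly in 2 others. Tfrc-201, of 4890 bases, had 483, 481 and 1642 reads. Its share of Tfrc reads was 62.4% in BMM-ABs (interval 58.9 to 65.7) and 52.5% in pOC-ABs (interval 49.2 to 55.7), and 88.1% in mOC-ABs (interval 86.6 to 89.5). Its log2 ratio was 2.01 in G2, with an interval of 1.86 to 2.15, and 0.29 in G1, with an interval of 0.11 to 0.48. The shorter coding transcript Tfrc-202, of 1860 bases, had 156, 226 and 80 reads, with a G2 log2 ratio of −0.72 (interval −1.13 to −0.33), the opposite direction, and 0.84 in G1. Tfrc-204, a retained-intron transcript, had 113, 185 and 119 reads, and its log2 ratio in G1 was 1.01.

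The 4 elements printed above lie in Tfrc-201 and Tfrc-204, the other listed transcripts hold none, and reads were also split on that basis. Tfrc transcripts with the elements had 596, 666 and 1761 reads, which was 77.0%, 72.6% and 94.5% of the gene's reads. Those without had 178, 251 and 102. In G2 the first group was higher by 1.80 on the log2 scale (interval 1.67 to 1.94), and the second had a log2 ratio of −0.56 (interval −0.93 to −0.20). In G1 both groups were above BMM-ABs, by 0.46 with an element and 0.80 without. The split rests on how the authors' tool shared reads among overlapping transcripts, so it carries an error that the intervals do not cover.

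Steap3, the endosomal reductase that turns ferric into ferrous iron (chr1:120190757-120272705, minus strand), had 213, 178 and 204 reads. No difference was detectable at this depth. Its log2 ratios were 0.04, 0.18 and 0.14 in G1, G2 and G3, with intervals that include 0 in all 3. Steap3-202 held 94.8%, 79.2% and 99.5% of its reads, and the longer Steap3-203 had 11, 24 and 1 reads.

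Slc11a2, the divalent metal transporter 1 that moves ferrous iron out of the endosome (chr15:100387898-100425072, minus strand), had its highest level in BMM-ABs, with 492 reads against 285 in pOC-ABs and 282 in mOC-ABs. Both osteoclast-lineage libraries were lower than BMM-ABs, by log2 ratios of −0.49 in G1 (interval −0.70 to −0.27) and −0.56 in G2 (interval −0.78 to −0.35), short of 2-fold. Between mOC-ABs and pOC-ABs the ratio was −0.08, with an interval of −0.32 to 0.17. Slc11a2-205, the listed transcript with the 3′ UTR element, had 260, 181 and 155 reads. The transcripts without an element had 232, 104 and 127, of which Slc11a2-201 held 226, 99 and 123. In G1 the log2 ratio was −0.22 with the element (interval −0.50 to 0.06) and −0.86 without it (interval −1.20 to −0.52), and in G2 it was −0.51 and −0.63.

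Slc11a1, the related metal transporter of the macrophage phagosome (chr1:74375195-74386062, plus strand), was lower in pOC-ABs than in BMM-ABs and lower again in mOC-ABs. It had 746, 377 and 261 reads, and the mOC-AB level was 2.42-fold lower than the BMM-AB level (log2 −1.28, interval −1.48 to −1.07). The steps were −0.68 in G1 (interval −0.87 to −0.50) and −0.59 in G3 (interval −0.82 to −0.36) on the log2 scale. Summed FPKM also placed Slc11a1 past 2-fold in G2, with a log2 ratio of −1.18. Reads per read of Slc11a2 went from 1.52 in BMM-ABs (interval 1.35 to 1.70) and 1.32 in pOC-ABs (interval 1.13 to 1.55) to 0.926 in mOC-ABs (interval 0.779 to 1.10). In FPKM this ratio was 2.97, 3.21 and 1.93, again lowest in mOC-ABs but with BMM-ABs and pOC-ABs in the other order.

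The main coding transcript, Slc11a1-201, had 465, 238 and 156 reads, and its share of the gene stayed between 59.8% and 63.1%. Slc11a1-208, a retained-intron transcript, had 140, 0 and 56 reads. With 0 taken as 3 reads in the library, the fall from BMM-ABs to pOC-ABs was 37.9-fold. The upper end of its log2 interval was −4.93. Slc11a1-207, a processed transcript, had 81, 80 and 22 reads. Of 28, 25 and 29 member transcripts with at least 20 reads over the compared libraries, 8, 12 and 13 reached 2-fold in G1, G2 and G3, against 35%, 36.5% and 33% of all transcripts.

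**Figure D3:**
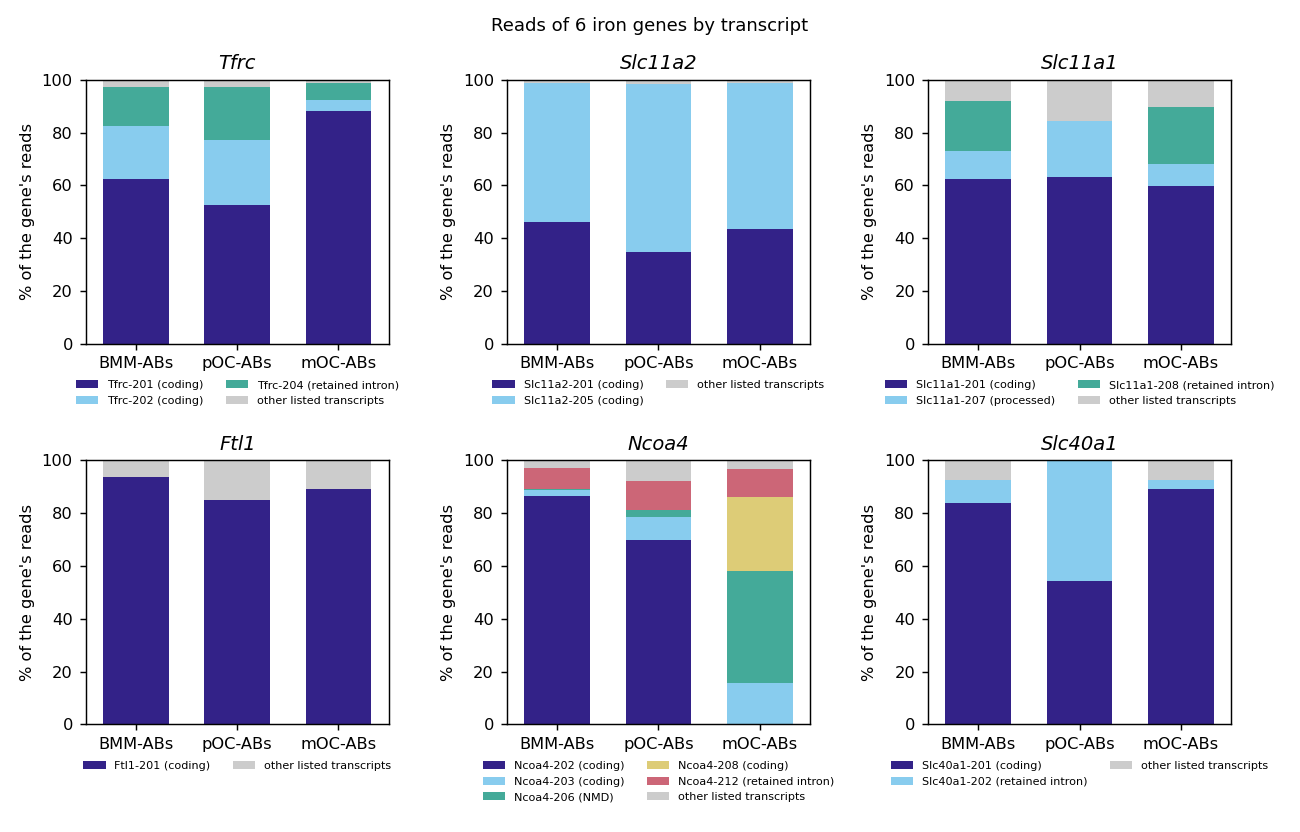
Share of each gene's reads (y axis, percent) held by its transcripts in the 3 libraries (x axis) for Tfrc, Slc11a2, Slc11a1, Ftl1, Ncoa4 and Slc40a1. Colours are transcripts with at least 10% of the gene's reads in a library, grey is the rest, and NMD is nonsense-mediated decay. Ncoa4 has a different leading transcript in mOC-ABs, and Tfrc-201 fills 88.1% of its bar there.

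Fth1, the ferritin heavy chain that oxidises ferrous iron as it enters the shell (chr19:9980598-9985098, plus strand), was lowest in mOC-ABs and highest in pOC-ABs. It had 34974, 35592 and 23479 reads, all on the single listed transcript Fth1-201. Its log2 ratio was 0.33 in G1 (interval 0.30 to 0.35), −0.33 in G2 (interval −0.36 to −0.31) and −0.66 in G3 (interval −0.68 to −0.64). These intervals are narrow because of the depth, and none of the 3 ratios reached 2-fold. The deposited FPKM of Fth1-201 corresponds to 866 bases, where the M21 transcript has 929, and it was the only 1 of the 47 member transcripts whose length differed. Whether the 5′ UTR element lies in the form the authors counted cannot be read from the table.

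Ftl1, the ferritin light chain that helps the iron core form (chr7:45457944-45459884, minus strand), was highest in mOC-ABs. It had 16093, 13965 and 18664 reads. Its log2 ratios were 0.10 in G1 (interval 0.06 to 0.13), 0.45 in G2 (interval 0.42 to 0.48) and 0.36 in G3 (interval 0.33 to 0.39). In G2 the light chain was thus higher and the heavy chain lower, both by less than 2-fold. The direction of Ftl1 in G1 turned when scaled by both tables (−0.10) and with protein-coding transcripts only (−0.05).

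Ftl1 has near-identical copies in the genome, and its reads are uncertain for that reason. Ftl1-ps1 (chr13:74399694-74407346) had 11096, 9638 and 11369 reads of its own, which was 68.9%, 69.0% and 60.9% of the Ftl1 reads in the 3 libraries. Its transcript Ftl1-ps1-202 matched Ftl1-201 at 99.6% of 910 aligned bases, with 524 in an unbroken run, and holds the same element as Ftl1 letter for letter, at chr13:74406428-74406457. Ftl1-ps2 had 369, 310 and 451 reads, and Ftl2-ps 77, 95 and 111. Ftl1 with the 3 copies gave log2 ratios of 0.10, 0.39 and 0.29 in G1, G2 and G3, in the same directions as Ftl1 alone.

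The balance of the 2 ferritin chains, counted within each library and so free of library scaling, moved towards the light chain in mOC-ABs. There were 2.17 Fth1 reads per Ftl1 read in BMM-ABs (interval 2.13 to 2.21), 2.55 in pOC-ABs (interval 2.5 to 2.6) and 1.26 in mOC-ABs (interval 1.23 to 1.28). In FPKM the ratio was 2.38, 2.75 and 1.36. With the reads of Ftl1-ps1 counted as light chain it was 1.29, 1.51 and 0.782, so the order of the libraries was kept. In mOC-ABs the heavy chain was then below the light chain, also in FPKM, at 0.844. RNA of an uptake gene, Tfrc, was also set against RNA of a storage gene, Fth1, without a measure of protein or iron. There were 22.1 Tfrc reads per 1000 Fth1 reads in BMM-ABs (interval 20.6 to 23.8) and 25.8 in pOC-ABs (interval 24.1 to 27.5). In mOC-ABs there were 79.3 (interval 75.7 to 83.2). The ratio of Tfrc FPKM to Fth1 FPKM gave the same order with a smaller rise, 0.00795, 0.00962 and 0.0185.

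**Figure D4:**
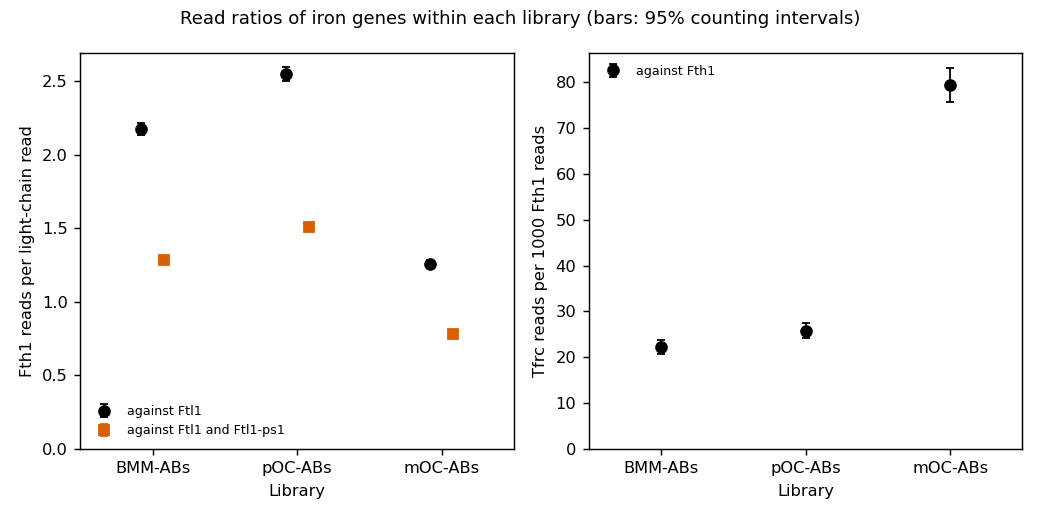
Left, Fth1 reads per light-chain read (y axis) in the 3 libraries (x axis), against Ftl1 alone (black) and against Ftl1 with Ftl1-ps1 (orange). Right, Tfrc reads per 1000 Fth1 reads; bars are 95% counting intervals. The heavy-to-light ratio is lowest in mOC-ABs at 1.26 and 0.782, and the Tfrc value is highest there at 79.3.

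Transcripts of Ftl1 that keep an intron held more of its reads in pOC-ABs and mOC-ABs than in BMM-ABs. Retained-intron transcripts held 3.63% of Ftl1 reads in BMM-ABs (interval 3.35 to 3.93), 12.0% in pOC-ABs (interval 11.4 to 12.5) and 9.33% in mOC-ABs (interval 8.92 to 9.76), while over the whole mRNA table their share was 5.22%, 4.21% and 3.84%. Ftl1-205, singled out after its values were seen, had 136, 1279 and 922 reads and was higher on the log2 scale by 3.53 in G1 (interval 3.28 to 3.8) and by 3.0 in G2 (interval 2.74 to 3.27). The other listed retained-intron transcript had 448, 393 and 820 reads, or 2.78%, 2.81% and 4.39% of the gene's. The coding transcript Ftl1-201 had 15109, 11856 and 16674 reads, and its log2 ratio in G1 was −0.05 (interval −0.08 to −0.01). These values also rest on how the authors' tool shared reads among overlapping transcripts and near-identical copies, an error the intervals do not cover.

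Ncoa4, the receptor that carries ferritin to the lysosome so that its iron can be used again (chr14:32159865-32179855, plus strand), had fewer reads in mOC-ABs than in the other 2 libraries. It had 603, 389 and 153 reads, with log2 ratios of −0.33 in G1 (interval −0.52 to −0.15), −1.74 in G2 (interval −2.0 to −1.48) and −1.41 in G3 (interval −1.69 to −1.13). This fall lay in the transcript Ncoa4-202, described below. In summed FPKM, which weights short transcripts more, the fall was smaller and not past 2-fold. FPKM was 19.9, 22.9 and 15, and the log2 ratios were 0.20, −0.41 and −0.61 in G1, G2 and G3, so that the direction in G1 depended on the measure.

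A different transcript led Ncoa4 in mOC-ABs. Ncoa4-202, a coding transcript of 4065 bases, had 522, 272 and 0 reads. With 0 taken as 3 reads, it was 147-fold lower in mOC-ABs than in BMM-ABs and 94.6-fold lower than in pOC-ABs. The upper ends of the log2 intervals were −6.90 in G2 and −6.26 in G3. The nonsense-mediated decay transcript Ncoa4-206, of 4032 bases, had 3, 11 and 65 reads and led the gene in mOC-ABs. Ncoa4-208, a coding transcript of 1101 bases, had reads only in mOC-ABs, 43 of them. With 0 taken as 3 reads this was 16.9-fold higher than in BMM-ABs, and the lower end of the log2 interval was 3.72. The short coding transcript Ncoa4-203, of 462 bases, had 13, 33 and 24, and the retained-intron Ncoa4-212 had 48, 43 and 16. Outside Ncoa4-202 the gene had its fewest reads in BMM-ABs and its most in mOC-ABs, the opposite direction to the gene sum. Not every other transcript rose, as Ncoa4-212 was lowest in mOC-ABs and so was Ncoa4-201, with 12, 25 and 3 reads. Of the 10 genes, Ncoa4 was the only one whose leading transcript by reads differed between libraries. The share of all genes with such a switch is not given here, so this count has no background beside it. Whether reads of Ncoa4-202 were assigned to an overlapping transcript in mOC-ABs was not tested.

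Slc40a1, ferroportin, the exporter of iron from the cell (chr1:45908068-45926523, minus strand), had the fewest reads of the 10 genes, 81, 46 and 55. Its log2 ratios were −0.52 in G1 (interval −1.07 to 0.02), −0.32 in G2 (interval −0.84 to 0.19) and 0.20 in G3 (interval −0.39 to 0.79). A difference was not detectable at this depth in any of them. The coding transcript Slc40a1-201 had 68, 25 and 49 reads, and its log2 ratio was −1.14 in G1 (interval −1.87 to −0.46). The retained-intron transcript Slc40a1-202 had 7, 21 and 2 reads. These were 8.64% of the gene in BMM-ABs (interval 4.25 to 16.8), 45.7% in pOC-ABs (interval 32.2 to 59.8) and 3.64% in mOC-ABs (interval 1.0 to 12.3). RNA of an import gene, Tfrc, was set against that of the export gene Slc40a1. There were 9.56 Tfrc reads per Slc40a1 read in BMM-ABs (interval 7.59 to 12.2) and 19.9 in pOC-ABs (interval 14.8 to 27.4). In mOC-ABs there were 33.9 (interval 25.9 to 45.1). The intervals of the last 2 overlap, and in FPKM the ratio was 13.3, 26.5 and 30.7.

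Hmox1, haem oxygenase 1, which opens the haem ring and frees its iron (chr8:75093621-75100589, plus strand), was lowest in mOC-ABs. It had 2149, 1997 and 1325 reads, with 99.6%, 99.9% and 99.5% of them on Hmox1-201. The log2 ratios were 0.19 in G1 (interval 0.11 to 0.28), −0.46 in G2 (interval −0.56 to −0.36) and −0.65 in G3 (interval −0.75 to −0.55). None reached 2-fold. The order of pOC-ABs and BMM-ABs was not settled, as scaling by both tables gave a G1 log2 ratio of −0.00381.

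Ireb2, iron regulatory protein 2, which binds the elements printed above (chr9:54863789-54912530, plus strand), had the ratios closest to 0 of the 10 genes when divided by the mRNA table totals. It had 942, 757 and 805 reads, or 104, 102 and 104 CPM, which divides reads by the table total. The log2 ratios were −0.01, 0.01 and 0.03 in G1, G2 and G3, with intervals that include 0 in all 3. Ireb2-201 held 97.5%, 98.4% and 98.8% of its reads.

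Other genes of iron handling were taken from a list of 66, of which 50 had a row and 44 had enough reads to compare. In G1, G2 and G3 none of the 44 was past 2-fold higher at this scaling, beside 4.2%, 3.78% and 3.06% of all genes. Past 2-fold lower were 5, 4 and 1 in G1, G2 and G3, beside 5.74%, 8.48% and 5.9% of all genes compared. The median log2 ratio of the list was 0.05, 0.11 and 0.05 in these comparisons. All 8 genes of haem synthesis and all 13 of mitochondrial iron and iron-sulphur clusters had a row, and none of those with enough reads was past 2-fold.

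The genes of the list that reached 2-fold had their highest level in BMM-ABs. Hfe, the partner of the transferrin receptor in iron sensing, had 146, 59 and 43 reads. It was lower in G1, at a log2 ratio of −1.01, and in G2, at −1.52, but in FPKM its G1 level was 0.588 of that in BMM-ABs and not past 2-fold. Slc39a14, a transporter of iron not bound to transferrin, had 421, 162 and 154 reads and log2 ratios of −1.08 and −1.21. In summed FPKM it was 0.527 of the BMM-AB level in G1 and 0.627 in G2, neither past 2-fold.

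Cp, ceruloplasmin, the ferroxidase that works with ferroportin, had 69, 18 and 2 reads. Its log2 ratio was −1.64 in G1 and −4.87 in G2, where 2 reads leave an interval of −7.94 to −2.96. Bach1, a haem-sensing repressor of Hmox1, had 889, 506 and 351 reads. Its G2 log2 ratio was −1.10, beside −0.46 for Hmox1.

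Slc46a1, a carrier of haem and folate, had 40, 12 and 25 reads. Its G1 log2 ratio was −1.44, with an interval of −2.50 to −0.48. In G3 it was higher by 1.0 on the log2 scale (interval −0.05 to 2.13), just short of 2-fold, and median-of-ratios scaling places it past 2-fold. Lrp1, the receptor for haemopexin-bound haem among many other ligands, had 26893, 10367 and 15370 reads and log2 ratios of −1.07 in G1 and −0.57 in G2. Its FPKM in pOC-ABs was 0.546 of that in BMM-ABs, so by FPKM 3 of the 5 genes past 2-fold in G1 no longer were.

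The labels were checked against markers of the cells. Of 10 osteoclast markers 9 had a row, with a summed level of 345, 581 and 1870 CPM. Nfatc1 alone held 282, 375 and 1098 CPM of that sum. Calcr had no row, and Itgb3 had 6, 3 and 0 reads. The 6 macrophage markers had a summed level of 5724, 2729 and 1786 CPM, and 5 of them were past 2-fold lower in G2. Lyz2 alone held 3170, 1334 and 411 CPM of that sum. In G3 the macrophage markers were split, with 4 below 0 and 2 above, Csf1r at a log2 ratio of 0.50 and Cd68 at 0.02. The ratios of Tfrc, Slc11a1 and Ncoa4 moved alongside these marker sums, and the part of the cell mix in them was not tested. For Ncoa4 this holds for the gene sum, through Ncoa4-202, while its reads outside Ncoa4-202 moved the other way. Of 8 erythroid genes 2 had a row, Klf1 and Epor, with 7, 7 and 1 reads in sum, and the haemoglobins had no row. No row was found for the 7 neutrophil genes. The 6 stromal genes summed to 38, 39 and 27 reads, the 4 lymphoid genes to 2, 1 and 0, and the 3 endothelial genes to 20, 11 and 38.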

How the data were processed

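RNA of 3 AB libraries, purified on poly-T beads and sequenced as read pairs, was analysed. The authors deposited read counts and FPKM for each transcript in an mRNA table and an lncRNA table, and junction counts with SRPBM, a scaled score, for circRNAs. Per the labels, the submitters' processing notes name HISAT2, StringTie, FastQC and GRCm38. Their versions, the roles of the tools and the strand setting are not given in the sources used here. Deposited text columns of other kinds (identifiers, positions) were used for matching only.

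Transcripts were matched by Ensembl identifier to GENCODE M21 (56422 matched, 229 did not) and their counts and FPKM were summed per gene symbol. Ratios of counts were divided by the mRNA table totals, and their precision depends on the reads of the gene or transcript in the compared libraries. In the fold values of transcripts with 0 reads in a library, counts below 3 were taken as 3 reads. Log2 ratios used the counts themselves. The members and gene lists were chosen with earlier results of these data known. Named were every member, its transcripts with at least 10% of its reads in a library, genes of the wider list past 2-fold with at least 20 reads, Ftl1 copies with at least 20 reads, and lncRNAs at a member with at least 20 reads. Columns of per-sample values were all mapped. Alternatives were other library scalings, protein-coding or well-covered transcripts only, overlapping lncRNAs added, FPKM with and without a pseudocount of 1, a limit of 1.5-fold, and other read minimums. Ftl1 with its copies and transcripts of at least 1000 bases only were chosen after seeing the data. Python 3.11.15, pandas 2.3.3, scipy 1.17.1 and Biopython 1.88 (alignments) were used, and the interval code was tested on simulated data.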

Additional observations from a re-analysis of the deposited data

Results flagged for a closer look

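Reads outside the mRNA table were found at members' loci in the lncRNA table, which the comparisons above do not use. NONMMUT033863.2, at chr19:9981923-9982490 within Fth1 and with the same ends as the annotated transcript Fth1-205, had 24 reads in BMM-ABs, against 35 in pOC-ABs and then 10 in mOC-ABs, few beside the 34974, 35592 and 23479 reads of Fth1. NONMMUT069199.2, at chr9:54874999-54875968 within Ireb2, had 6, 7 and 1 reads, and was singled out after its values were seen. Both were above 3 reads, the limit that a count of 0 allows, in BMM-ABs and pOC-ABs.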

How the results depend on the processing

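With 1 library per group no replicate could be left out. No paired analysis was possible because each group holds 1 library. Of 294 log2 ratios of members recomputed under 10 alternatives, 250 lay within the counting interval of the reported ratio, and 44 lay outside it. Some alternatives, such as Ftl1 with its copies, cannot change most members, so this sum overstates how stable the ratios were. Scaling by both tables kept 18 of 30 within the interval, protein-coding transcripts only 21 of 30, and summed FPKM 24 of 30. None of the ratios past 2-fold changed sign, but 10 others did, 5 of them where the reported interval excludes 0. These were all in G1, Ftl1 (0.10 became −0.10 scaled by both tables and −0.05 on protein-coding transcripts), Hmox1 (0.19 became −0.00381 scaled by both tables) and Ncoa4 (−0.33 became 0.20 by FPKM and 0.19 with a pseudocount). The number of members past 2-fold in G1 became 1 with protein-coding transcripts only (Slc40a1) and 1 at a limit of 1.5-fold (Slc11a1). In G2 it fell to 1 (Slc11a1) by summed FPKM, with or without a pseudocount. In G3 it became 2 (Tfrc and Ncoa4) when scaled by both tables, by median-of-ratios factors or on protein-coding transcripts only, 0 by summed FPKM with or without a pseudocount, and 5 at 1.5-fold, where 22.4% of all genes passed. The share of all genes past 2-fold in G1, G2 and G3 was 19.7%, 21.9% and 19.6% with no read minimum and 6.69%, 8.66% and 5.18% from 100 reads. The wider list gave 9, 8 and 5 genes at 1.5-fold and 2 in G3 by median-of-ratios factors, the added gene being Slc46a1, which was higher. By FPKM the leading transcript differed between libraries in 4 members (Tfrc, Slc11a2, Ncoa4 and Slc40a1), a count likewise without a share of all genes beside it. The cause of these shifts was not tested. Depth limits Slc40a1 most, with 46 to 81 reads a library.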

Other observations

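No circRNA junction was listed at any of the 10 members. The share of all genes with a listed junction is not given here, so this absence is not read as a trait of the iron genes. The table holds 1372 junctions, with 3413 junction reads in BMM-ABs, against 2380 for pOC-ABs and 4014 for mOC-ABs.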
